A study of Mus musculus with 4 samples.

Results

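The genes of the proteasome were followed across alveolar type I (AT1) cells of 3 ages and alveolar type II (AT2) cells of the mouse lung. Members were chosen by name alone: every listed gene symbol of Psm, a letter from a to g and a number, leaving out the interferon-inducible Psmb8 and Psmb9. The rule took the same 46 genes in each of the 4 files, of the 11242 genes that all 4 files list. Of these, 44 have a role in the particle: 15 genes of the core (7 of the alpha ring and 8 of the beta ring), 17 of the cap (9 of the base and 8 of the lid) and 12 regulators (3 base chaperones, 5 activators and inhibitors, 4 core chaperones). The lid gene Shfm1 does not match the name rule and is counted in none of these groups. The other 2 matches, Psmc3ip, which encodes a recombination factor that binds a base subunit, and Psme2b, a retrocopy of Psme2, are described apart at the end.

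The proteasome is the protease that degrades most ubiquitin-tagged proteins of the cell. Its core is a barrel of stacked alpha and beta rings with the active sites inside, and its cap recognises tagged proteins: the lid removes ubiquitin, and the ATPases of the base unfold the substrate and feed it into the barrel. Other activators can replace the cap, assembly chaperones build the particle, and cells short of proteasome activity can raise many subunit genes together through the transcription factor Nfe2l1. AT1 cells are the flat cells of the gas exchange surface, and AT2 cells are the cuboidal cells that make surfactant.

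All mice were of mixed FVB/C57BL6 background, carried Sftpc-CreER, Rosa26-Zsgreen and Hopx-RFP, and had been given tamoxifen, so every group shares these alleles and this treatment. The Sftpc promoter restricts the Cre to cells with surfactant protein C activity. The AT1 libraries come from postnatal days 3 (P3), 15 (P15) and 60 (P60), from cells gated as RFP+ and Pdpn+ but GFP- and CD45-, and the AT2 library from GFP+ CD45- cells of P60. Each group is 1 library made with the 10x 3' method, in which unique molecular identifiers (UMIs) count transcripts, and how many animals it holds was not given in the sources used here. Lungs for AT1 cells were digested with elastase and type I collagenase on top of the neutral protease and DNase I used for both, so cell type and digestion cannot be told apart between the P60 libraries. With 1 library per group no test between groups was possible, and no p-value is given. All intervals cover counting error at 95% only, and a ratio whose interval leaves out 1 need not exceed the spread between animals, which was not measured.

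The libraries held 3149, 2940 and 1337 cells at P3, P15 and P60 and 2093 AT2 cells, with 7276458 to 26536894 UMIs and medians of 4864 to 7477 UMIs per cell. Between 3 and 15 cell barcodes were shared by a pair of libraries. Levels below are UMIs summed over the cells of the sorted type, 2839, 2659, 1169 and 2030 cells, per 1000000 UMIs (CPM). These cells carried their labelled type's markers: the 17 AT1 markers summed to 38351, 64750 and 55511 CPM in the AT1 libraries against 3309 CPM in AT2 cells, and the 16 AT2 markers to 739 to 793 CPM against 249320 CPM. The libraries also differed in ways that move every CPM value. Ribosomal protein genes took 20.3, 7.29 and 4.75% of UMIs at P3, P15 and P60 and 14.5% in AT2 cells, and the nuclear RNA Malat1 took 4.27, 6.68, 16 and 4.05%. Mitochondrial genes took 2.2, 3.06, 3.07 and 6.19%.

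Summed over the 44 genes, the proteasome's transcripts held a near constant share of all AT1 UMIs and a smaller share of all UMIs in AT2 cells. The sum was 4948 CPM (95% interval 4919 to 4977) at P3, 5029 at P15 and 5085 at P60, and 3388 CPM in AT2 cells. AT2 cells thus had 0.666 times the level of P60 AT1 cells (interval 0.656 to 0.676), while the AT1 ages lay within 1.03-fold of each other. Both statements depend on the scaling. By a trimmed mean of log ratios, which sets the bulk of genes equal, the AT2 sum was 1.04 times that of P60 AT1 cells, and with totals without ribosomal protein, mitochondrial and haemoglobin genes or without Malat1 it was 0.775 and 0.583 times. The P60 sum was 0.864 to 1.17 times that of P3 over these scalings. In CPM, AT2 cells held the lowest level of the 4 libraries for 35 of the 44 genes, among them all 7 of the alpha ring and all 9 of the base. P60 AT1 cells held the highest for 21. These counts were not made over all genes, so they do not set the proteasome apart. In CPM, 53.7% of all 5524 measured genes were at least 1.5-fold lower in AT2 than in P60 AT1 cells. The plot of each gene's level in the 4 libraries shows the AT2 points at the left end of most lines.

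**Figure D1:**
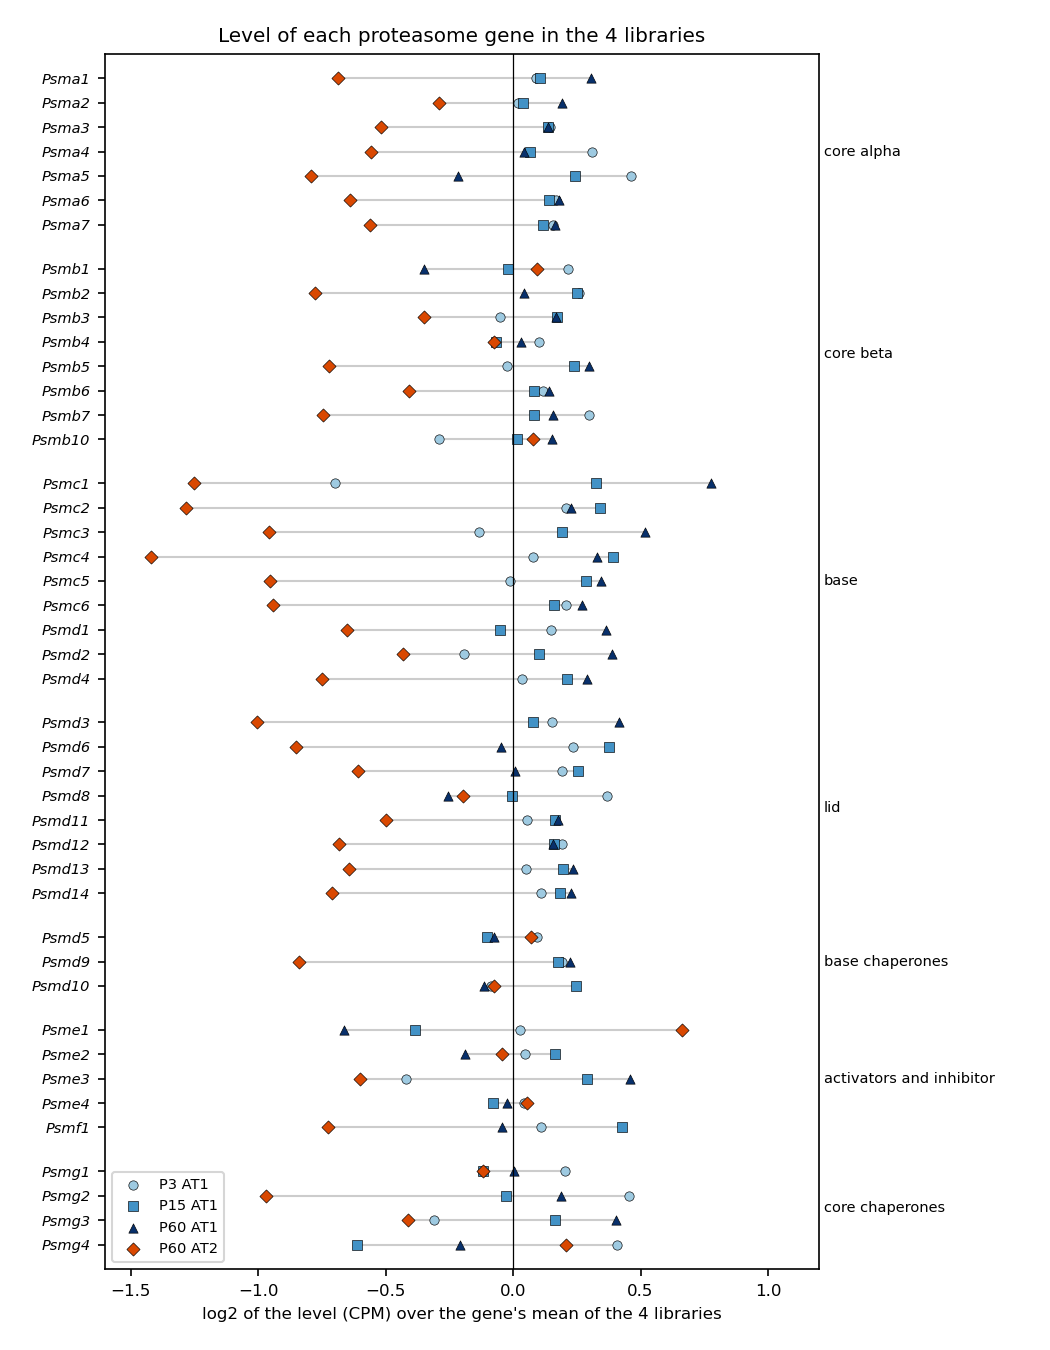
Level of each of the 44 proteasome genes in the 4 libraries, grouped by role; the x axis is log2 of the level in CPM over the gene's mean of the 4 libraries, and each gene has 1 point per library. In CPM, AT2 cells (diamonds) are lowest for 35 genes, a count not made over all genes. Psme1 and Psmc1 have their extremes in opposite libraries.

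Over the AT1 ages the proteasome's make-up differed more than its total in CPM. Between the P60 cell types, base genes and activators with the inhibitor were the roles whose share differed most. The share of each role among proteasome UMIs does not depend on how a library is scaled, and because 3' UMIs depend on the transcript, shares are compared here between libraries and not between roles. Base genes took 16.9% of proteasome UMIs at P3, 20.2% at P15 and 22.9% at P60, and 13.4% in AT2 cells. Core genes kept to 55.3, 53.4, 52.7 and 54.4%, and the 8 counted lid genes to 15, 14.5, 13.6 and 13%. The lid gene Shfm1, which the name rule leaves out, was at 855, 708, 495 and 391 CPM. The 8 counted lid genes together were at 741, 727, 692 and 442 CPM. Shares with Shfm1 counted in the lid were not computed, so the lid share holds for these 8 genes only. Activators and the inhibitor took 8.36, 8 and 6.65% in AT1 cells and 14.5% in AT2 cells. The exact Clopper-Pearson intervals of the base share, 16.7 to 17.1, 19.9 to 20.5, 22.4 to 23.3 and 13.1 to 13.8%, did not overlap.

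**Figure D2:**
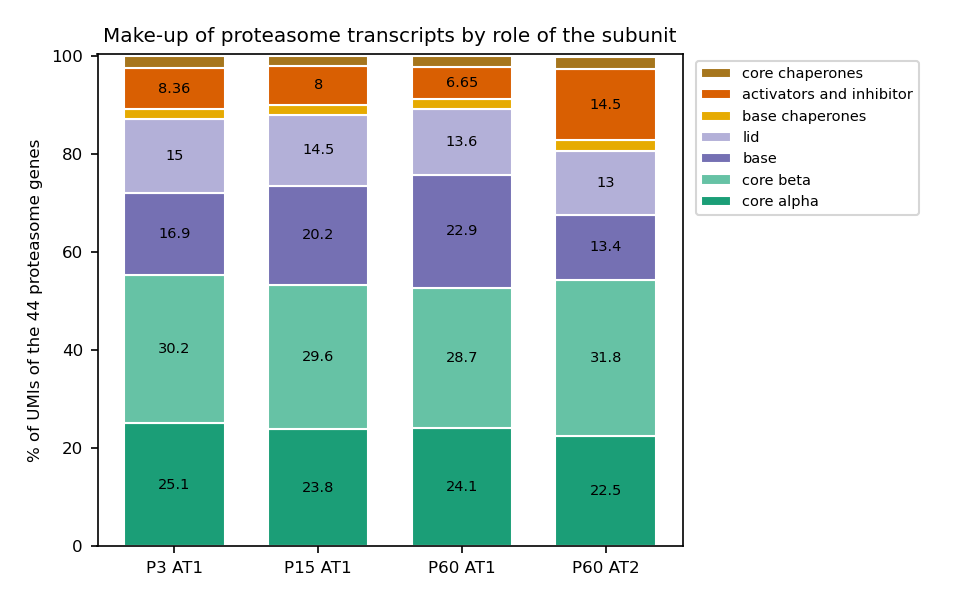
Percentage of the UMIs of the 44 proteasome genes that each role takes in the 4 libraries; bars sum to 100% and small segments carry no number. The base segment grows from 16.9 to 22.9% over the AT1 ages and is 13.4% in AT2 cells, where activators and the inhibitor reach 14.5%.

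The base share held its order over the cells chosen. With all cells of a library, with 2 other cluster resolutions, or with only cells of low immediate early, mitochondrial or Malat1 share or of at least 4000 UMIs, it ran from 16.5 to 17% at P3, 19.7 to 20.2% at P15, 22.5 to 22.9% at P60 and 13.3 to 13.5% in AT2 cells. The order does not rest on Psmc1, the base gene that differed most: the other 8 base genes took 15.5, 17.5, 19.1 and 12.1%. The regulators' share does rest on a single gene in part. It was 19.2% in AT2 cells and 10.8% in P60 AT1 cells, and without Psme1 10.9 and 8.61%.

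The 6 ATPases Psmc1 to Psmc6 form the ring that unfolds substrates. Together they took 11.1, 14.1 and 15.8% of proteasome UMIs at the 3 AT1 ages, youngest first, and 7.97% in AT2 cells. Psmc1 (Rpt2), an ATPase whose tail helps open the core's gate, stood at 68.4 CPM at P3, 139 at P15, 190 at P60 and 46.7 in AT2 cells. It was thus 2.04-fold higher at P15 than at P3 (interval 1.9 to 2.18), 2.78-fold higher at P60 than at P3 (2.58 to 3) and 4.07-fold higher in P60 AT1 than in AT2 cells (3.66 to 4.54). Among the 4 libraries it was the widest difference of any member in CPM. By the trimmed mean Psmc1 was 2.62-fold higher in P60 AT1 than in AT2 cells, and Psme1 was 3.91-fold higher in AT2 cells. Psmc3 (Rpt5), another gate-opening ATPase, was at 150, 188, 236 and 84.9 CPM, a 1.57-fold higher level at P60 than at P3 (1.48 to 1.67).

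The other ATPases differed little with age and much between the cell types. Psmc2 was at 85.4, 93.6 and 86.5 CPM at the 3 AT1 ages, youngest first, and at 30.4 CPM in AT2 cells. Psmc4 was at 93.4, 116 and 111 CPM against 33 in AT2 cells. Psmc5 was at 80.4, 98.8 and 103 CPM against 41.8. Psmc6 was at 73.6, 71.2 and 77 CPM against 33.2. In P60 AT1 cells these 4 genes were therefore 2.32-fold (Psmc6) to 3.35-fold (Psmc4) above AT2 cells. The 3 non-ATPase base genes were also lowest in AT2 cells. Psmd4 (Rpn10), a ubiquitin receptor, was at 139, 157, 166 and 80.7 CPM. The scaffold gene Psmd1 was at 71.3, 62, 82.8 and 40.9 CPM. The other scaffold gene, Psmd2, was at 74.9, 91.8, 112 and 63.5 CPM, so it differed with age as well (1.49-fold higher at P60 than at P3, 1.37 to 1.63). The UMI ratio of Psmc1 to Psmc2, which no scaling can move, was 0.801, 1.49 and 2.2 at the 3 AT1 ages, youngest first, and 1.53 in AT2 cells.

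Psmc1 lies on chromosome 12 (100110154 to 100123405, plus strand, GRCm38). The promoter windows of 3 ATPases, which share the lower AT2 level but differ in their course with age, are printed 5′ to 3′ from RefSeq's GRCm38.p6 starts, 250 bases before to 50 after the start: Psmc1 at chr12:100109952-100110251 (plus), Psmc4 at chr7:28050043-28050342 (minus) and Psmc6 at chr14:45329574-45329873 (plus). Capitals mark matches to the motifs named next.
Psmc1: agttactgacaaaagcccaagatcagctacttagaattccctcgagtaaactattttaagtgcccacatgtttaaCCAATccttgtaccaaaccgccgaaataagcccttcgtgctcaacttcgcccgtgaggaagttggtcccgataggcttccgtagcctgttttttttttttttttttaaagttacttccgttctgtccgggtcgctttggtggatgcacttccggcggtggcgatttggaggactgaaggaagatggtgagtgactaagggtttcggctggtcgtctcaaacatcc
Psmc4: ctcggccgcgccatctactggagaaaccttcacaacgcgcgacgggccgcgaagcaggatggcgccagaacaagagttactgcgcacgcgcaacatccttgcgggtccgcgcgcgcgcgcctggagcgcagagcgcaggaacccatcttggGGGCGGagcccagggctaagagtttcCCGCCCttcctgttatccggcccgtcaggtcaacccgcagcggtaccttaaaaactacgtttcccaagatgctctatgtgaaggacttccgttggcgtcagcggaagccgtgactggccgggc
Psmc6: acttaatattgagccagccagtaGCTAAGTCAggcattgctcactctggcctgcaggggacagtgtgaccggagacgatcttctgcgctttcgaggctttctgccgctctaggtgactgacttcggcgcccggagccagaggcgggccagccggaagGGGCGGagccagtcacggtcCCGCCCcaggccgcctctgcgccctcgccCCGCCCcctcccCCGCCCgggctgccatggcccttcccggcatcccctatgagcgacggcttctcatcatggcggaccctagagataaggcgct
The motifs searched on both strands were CCAAT (bound by NF-Y), TGACNNNGC (the core of the antioxidant response element bound by Nfe2l1 and Nfe2l2), GGGCGG (the GC box), TTCNNNGAA (the interferon-gamma activated site) and the interferon-stimulated response element (2 GAAA with any 2 bases between them). Psmc1 held CCAAT, Psmc4 GC boxes, and Psmc6 TGACNNNGC and GC boxes. Of the 44 genes, 37 had windows (40 in all). GGGCGG was in 23 of these 40 (57.5%) against 35.7% of all 32851 windows, CCAAT in 12 (30 against 37.4%), TGACNNNGC in 6 (15 against 12.4%), the interferon-stimulated response element in 5 (12.5 against 3.44%) and TTCNNNGAA in 2 (5 against 8.3%). The last 2 motifs can overlap. The 6 genes with TGACNNNGC were Psmb5, Psmb6, Psmc6, Psmd9, Psmd12 and Psme4. A match describes letters only.

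Lid genes followed the general AT2 pattern with fewer differences between ages. Psmd14 (Rpn11), the deubiquitinase of the lid, was at 40.4, 42.6 and 43.9 CPM at the 3 AT1 ages, youngest first, and 22.9 in AT2 cells. Psmd11 (Rpn6), a clamp between core and cap, was at 97.4, 105, 106 and 66.3 CPM. Psmd3 (Rpn3), a structural lid subunit, differed most between the cell types, at 78.8, 75 and 94.6 CPM against 35.4, which is 2.67-fold (2.34 to 3.05). Psmd6 (Rpn7) was at 65.6, 72.4, 53.9 and 30.9 CPM, and Psmd13 (Rpn9) at 105, 116, 119 and 64.9 CPM. Psmd8 departed from the rest of the lid. It stood at 186 CPM at P3, 144 at P15 and 121 at P60, and at 126 CPM in AT2 cells, so the P60 cell types did not differ beyond counting error in CPM (ratio 1.04, interval 0.954 to 1.14). Over the 4 scalings this ratio ran from 0.914 to 1.63.

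In CPM the summed core differed less with age than the sum of the 17 cap genes or of the regulators. By the trimmed mean the log2 ratio of P60 over P3 was -0.24 for the core and 0.02 for the cap. The cap sum leaves out the lid gene Shfm1, at 855, 708 and 495 CPM at P3, P15 and P60 and 391 CPM in AT2 cells. Shfm1 thus differed with age in the direction opposite to the summed cap in CPM, and a cap sum that holds it was not made. The 15 core genes summed to 2734, 2684 and 2680 CPM in AT1 cells and 1842 CPM in AT2 cells. Of the catalytic genes, Psmb5 (chymotrypsin-like site) was at 190, 228, 237 and 117 CPM, Psmb6 (caspase-like site) at 271, 264, 275 and 188, and Psmb7 (trypsin-like site) at 151, 130, 137 and 73.3. All 3 were lowest in AT2 cells, and between AT1 ages none differed by more than 1.25-fold. Psmb1 and Psma5 had the opposite order to the base over the ages: Psmb1 was at 259, 220 and 175 CPM at P3, P15 and P60, and Psma5 at 115, 98.9 and 72, with 48.2 CPM in AT2 cells. Psmb1 was 1.36-fold higher in AT2 (238 CPM) than in P60 AT1 cells (1.27 to 1.46), the only core gene above its AT1 level in CPM and under all 4 scalings. By the trimmed mean 7 other core genes were above it too, from 0.04 (Psma4) to 0.57 (Psmb10) on the log2 scale. Psma7, which sits in the outer ring, was as flat over the ages as the core as a whole, at 320, 312 and 322 CPM, with 195 CPM in AT2 cells. Of the other alpha ring genes, Psma1 had the widest ratio between the cell types: it was at 118, 119 and 137 CPM in AT1 cells and 68.8 in AT2 cells, 1.99-fold lower (1.8 to 2.2). Psma2, with the narrowest, was at 204, 207, 230 and 165 CPM, and Psma4 at 148, 125, 123 and 81.1.

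Psmb10 encodes the inducible trypsin-like subunit that replaces Psmb7 in immunoproteasomes. It was at 25 CPM at P3, 30.9 at P15, 34 at P60 and 32.3 in AT2 cells. The P60 cell types did not differ beyond counting error (ratio 0.949, interval 0.797 to 1.13), while Psmb7 was lower in AT2 cells, so the UMI ratio of Psmb10 to Psmb7 was 0.166, 0.238, 0.249 and 0.441. Interferon-stimulated genes took 0.0414, 0.214, 0.111 and 0.0307% of UMIs in the same order of libraries. Within P15, the library highest in these genes, Psmb10 was at 25.4 CPM in the quartile of cells with the least and 37.8 CPM in the quartile with the most. In cells at or below their library's median share of these genes, the log2 ratio of Psmb10 was 0.05 for P60 over P3 and 0.06 for P15 over P3, against 0.44 and 0.31 in all cells of the type, and 0.14 for AT2 over P60 AT1 cells, against -0.07. The immunoproteasome gene Psmb8, no member by the rule, was at 21.2, 34.4, 40.9 and 62 CPM.

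Psme1 was the activator with the widest difference between the cell types. Psme1 and Psme2 encode the alpha and beta subunits of PA28, an ATP-independent ring that opens the core. Psme1 was at 181 CPM at P3, 136 at P15, 112 at P60 and 281 in AT2 cells, 2.51-fold higher in AT2 than in P60 AT1 cells (2.31 to 2.73). In CPM it was the only member at least 1.5-fold higher there, where 14.4% of all 5524 measured genes were. Psme2 was at 153, 166, 130 and 144 CPM, 1.11-fold higher in AT2 cells (1.02 to 1.21), so the UMI ratio of the PA28 subunits was 1.18, 0.821 and 0.864 in AT1 cells and 1.95 in AT2 cells. Reads of Psme2 and its retrocopy Psme2b may have been split by the counting, which leaves Psme2's level and this ratio uncertain. Exons of Psme1 overlap those of Emc9 on the other strand. The promoter window of Psme1 at chr14:55578244-55578543 (plus strand, GRCm38.p6) is shown because it held the interferon-stimulated response element, in reverse and just after the start, and a GC box, both in capitals.
Psme1: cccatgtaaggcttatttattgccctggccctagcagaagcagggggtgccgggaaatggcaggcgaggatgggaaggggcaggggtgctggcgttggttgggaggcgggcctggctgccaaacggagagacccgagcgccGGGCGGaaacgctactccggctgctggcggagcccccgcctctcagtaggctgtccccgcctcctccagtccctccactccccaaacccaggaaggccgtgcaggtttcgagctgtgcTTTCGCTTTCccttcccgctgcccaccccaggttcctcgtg

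The other activators had other orders of level than PA28. Psme3, a nuclear activator (PA28 gamma), was at 24.7 CPM at P3, 40.4 at P15, 45.4 at P60 and 21.8 in AT2 cells, 1.83-fold higher at P60 than at P3 (1.59 to 2.12). Psme4 (PA200), a large monomeric activator, was at 27.9, 25.6, 26.6 and 28.1 CPM, with every interval of its ratios in CPM holding 1. Over the 4 scalings its ratio of AT2 over P60 AT1 cells ran from 0.924 to 1.64. Psmf1, an inhibitor of the core, was at 27.1, 33.8, 24.4 and 15.2 CPM. The chaperones of the core split: Psmg2 was at 41.5, 29.7, 34.5 and 15.5 CPM, Psmg3 at 23.6, 32.8, 38.7 and 22, and Psmg4 at 42.4, 20.9, 27.7 and 36.9. Psmg4 was thus 2.03-fold lower at P15 than at P3 (1.78 to 2.33). Psmg1 stayed below the minimum of 20 CPM that a ratio needed here, at 14.1, 11.3, 12.3 and 11.3 CPM. Of the base chaperones, Psmd5 was at 26, 22.7, 23.1 and 25.6 CPM, Psmd10 at 22.3, 28.1, 21.9 and 22.5, and Psmd9 was at 52.6, 52, 53.7 and 25.7 CPM.

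Read against all genes, the age differences of the proteasome were few and the AT2 difference was close to the general one. Genes were measured in a comparison with a mean of at least 20 CPM over the 2 libraries and 30 UMIs in both together. They were called apart by size at 1.5-fold. Between P3 and P15, 2 of 43 measured members were higher (Psmc1 and Psme3) and 1 lower (Psmg4), where 18.4 and 10.2% of 5595 genes were. Between P15 and P60 no member was past 1.5-fold in either direction, where 12.7 and 10.1% of 5824 genes were. Between P3 and P60, 4 members were higher (Psmc1, Psmc3, Psme3 and Psmg3) and 4 lower (Psma5, Psmd8, Psme1 and Psmg4), 9.3% each way, against 24.7 and 13.5% of 5790 genes. The median log2 ratio of the members was 0.02, 0.05 and 0.02 in these comparisons, where that of all genes was 0.12, 0.02 and 0.15. At a fold of 2, 1 member was higher and 1 lower between P3 and P15 (6.97 and 5.04% of all genes), 0 either way between P15 and P60 (3.57 and 3.37%), and 1 higher and 0 lower between P3 and P60 (11.3 and 7.12%). The age comparisons share libraries, so they are not independent of each other.

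In AT2 against P60 AT1 cells, 28 of 42 measured members (66.7%) were at least 1.5-fold lower and 1 higher, against 53.7 and 14.4% of 5524 genes. At a fold of 2, 13 were lower and 1 higher, against 36.3 and 10.5%. The median log2 ratio was -0.82 for members and -0.68 for all genes, a difference of -0.14. By role the medians were -1.30 for base, -0.82 for lid, -0.60 for core and 0.06 for regulators: base genes lay below the median of all genes in 9 of 9 cases and core genes above it in 9 of 15. How the totals are scaled decides the size of this shift and, for 14 of the 44 genes, its direction. Scaled by a trimmed mean of log ratios, the medians were -0.18 for members and -0.04 for all genes, and 6 members were lower and 8 higher, against 28.6 and 26.3% of all genes. Psmc1, Psmc2, Psmc3, Psmc4, Psmc5 and Psmd3 stayed at least 1.5-fold lower, and Psme1 higher, under all 4 scalings tried.

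**Figure D3:**
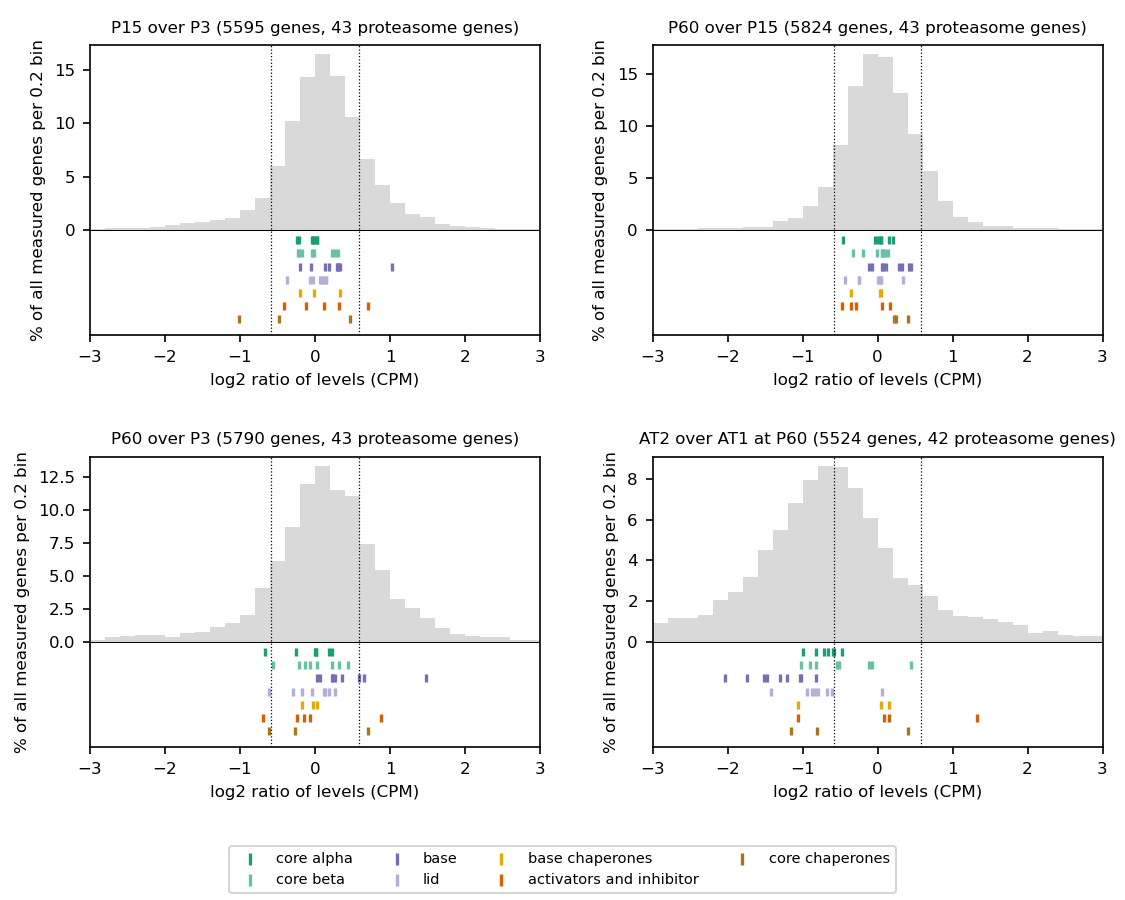
Histograms of the log2 ratio of levels for all measured genes in the 4 comparisons (grey, % of genes per bin of 0.2; values beyond 3 lie outside the axis), with each measured proteasome gene as a tick below, 1 row per role; dotted lines mark 1.5-fold. In the AT2 panel the 9 base genes lie left of the middle of all genes, and Psme1 at 1.33 lies far to the right.

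For the age comparisons, too, the scaling moves the split. Between P3 and P60 it was 2 higher and 5 lower by the trimmed mean, where 16.8 and 20.5% of all genes were. It was also 2 and 5 with totals without ribosomal protein, mitochondrial and haemoglobin genes (15.6 and 21.8%), and 6 and 0 with totals without Malat1 (35.5 and 9.71%). The sum of the core genes was 0.98 times its P3 level at P60 and went to either side of 1 with the scaling. That of the cap genes, without Shfm1, was 1.18 times its P3 level and on the log2 scale ranged from -0.02 to 0.42. Psmc1 was higher at P60 than at P3 by 2.34 to 3.17-fold and Psme3 by 1.54 to 2.09-fold over the 4 scalings. They were the only members past 1.5-fold in all of them for that comparison, and Psmc1 and Psmg4 were for P15 against P3.

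The difference between the cell types in CPM was also present per cell at equal depth. A share of a cell's UMIs is scaled to the total as CPM is, so it depends on the scaling in the same way and is no separate support. In cells thinned to 2000 UMIs, the median share of proteasome UMIs was 0.5, 0.45 and 0.45% at the 3 AT1 ages, youngest first, and 0.3% in AT2 cells, and the median number of the 44 genes with a UMI was 8, 8, 8 and 6. Thinning left out 0, 210, 121 and 42 shallower cells. Without thinning the medians were 0.486, 0.485, 0.473 and 0.325%, and 22, 17, 17 and 12 genes. The spread between cells was wider than counting alone gives, and most so in P60 AT1 cells. The SD of the thinned share was 0.175, 0.177, 0.202 and 0.141 percentage points, where counting gives 0.157, 0.156, 0.157 and 0.129.

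**Figure D4:**
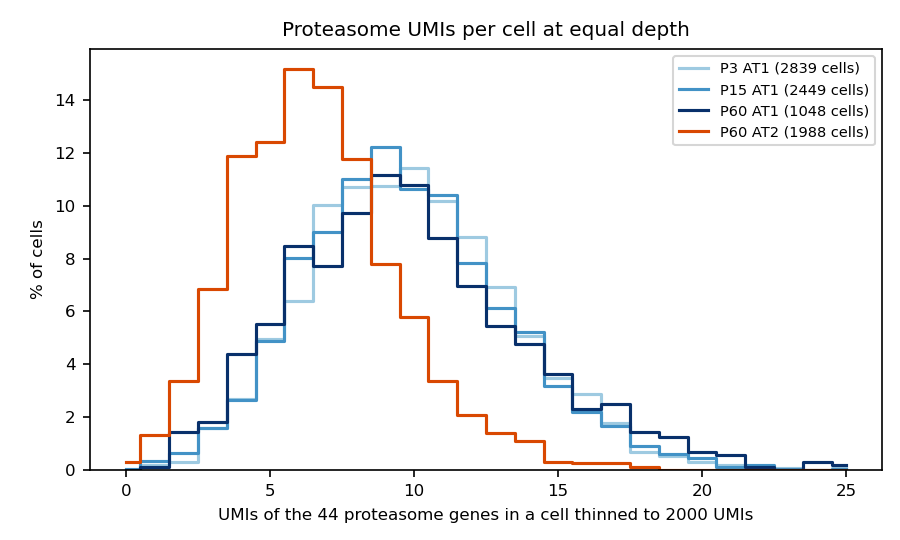
Number of proteasome UMIs per cell (x axis, counts) after thinning each cell to 2000 UMIs, as % of the cells of each library (y axis). The 3 AT1 curves overlap, and the AT2 curve is shifted to fewer UMIs, with a median share of 0.3 against 0.45 to 0.5%.

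Within each library, the summed level moved with the Malat1 share of a cell and so did the base share at P3 and P15. The total behind CPM holds Malat1 and mitochondrial UMIs, so part of any fall of the summed level with either share is built in. How large that part is was not computed. The base share is taken among proteasome UMIs and is not bound in this way. From the quartile of cells lowest in Malat1 to the highest, the summed level went from 6241 to 3692 CPM at P60, 5583 to 4336 at P15, 5206 to 4581 at P3 and 3608 to 3079 in AT2 cells. Base genes took 16.2, 16.8, 17.2 and 17.6% of proteasome UMIs from the lowest to the highest quartile at P3 and 19.5, 19.8, 20.6 and 21.5% at P15, so the base share was higher with more Malat1 there, in the direction in which both differ over the AT1 ages. At P60 it was 23, 22.4, 22.7 and 23.9%, and in AT2 cells 13, 13.8, 13.7 and 13.2%. The highest quartile at P15, with a median Malat1 share of 12.2%, lay below the lowest at P60, with 8.4%. The summed level was lower at a higher mitochondrial share in 3 libraries, from 5407 to 4395 CPM at P15, 5622 to 3860 at P60 and 3772 to 2850 in AT2 cells. At P3 the quartiles were at 4854, 4963, 5050 and 4918 CPM. The part of these shares in the difference between libraries was not tested. With only cells at or below their library's median Malat1 share, a choice made after the data were seen, the AT2 to AT1 median was -0.91, as against -0.82.

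Base share and Psmc1 separated all AT1-like clusters from those of the AT2 library, and the summed level did so except at P60. There an AT1-like cluster of 110 cells, with 28.9% Malat1, was at 2827 CPM. AT1-like clusters spanned 2827 to 6428 CPM at P60, 3724 to 5716 at P15 and 4625 to 5264 at P3, and the 3 AT2-like clusters of the AT2 library 3232 to 3457 CPM. The base share was 22.2 to 28.1% in the 5 AT1-like clusters at P60, 18.7 to 22.1% in the 6 at P15 and 16.5 to 17.4% in the 6 at P3, and 13.1 to 14% in the AT2 library. Psmc1 stood at 115 to 251, 113 to 161 and 56.6 to 78.6 CPM in them and at 45.7 to 47.3 CPM in the AT2 library, so the P3 and the later AT1 clusters did not overlap. Each AT1 library also held a small AT2-like cluster. These are not clean AT2 cells. Their AT1 markers summed to 17730, 9141 and 10854 CPM at P3, P15 and P60 and their AT2 markers to 109232, 71797 and 82974 CPM, against 3309 and 249320 CPM in the AT2 library. At P3 their median of 16685 UMIs was above the 7477 of the library. At P15 42 of 63 and at P60 42 of 53 cells carried several markers of another cell type, the rule by which cells were left out elsewhere. In these 65, 63 and 53 cells at P3, P15 and P60, the base share was 15.4, 15.8 and 18.7% and Psmc1 was at 45.5, 61.4 and 62.3 CPM, below every AT1-like cluster of the same library. Psme1 was at 225, 188 and 320 CPM there, above every AT1-like cluster of the same library. Without the cells that met that rule, a choice made after the data were seen, 64, 21 and 11 cells were left. Their base share was 15.4% (interval 14.3 to 16.6), 13.4% (10.6 to 16.7) and 15.3% (11.6 to 19.7), and Psmc1 rested on 50, 3 and 5 UMIs. Clusters were formed from the most variable genes of each library, and proteasome genes were not kept out of them. These values are therefore a description, and doublets were not removed.

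**Figure D5:**
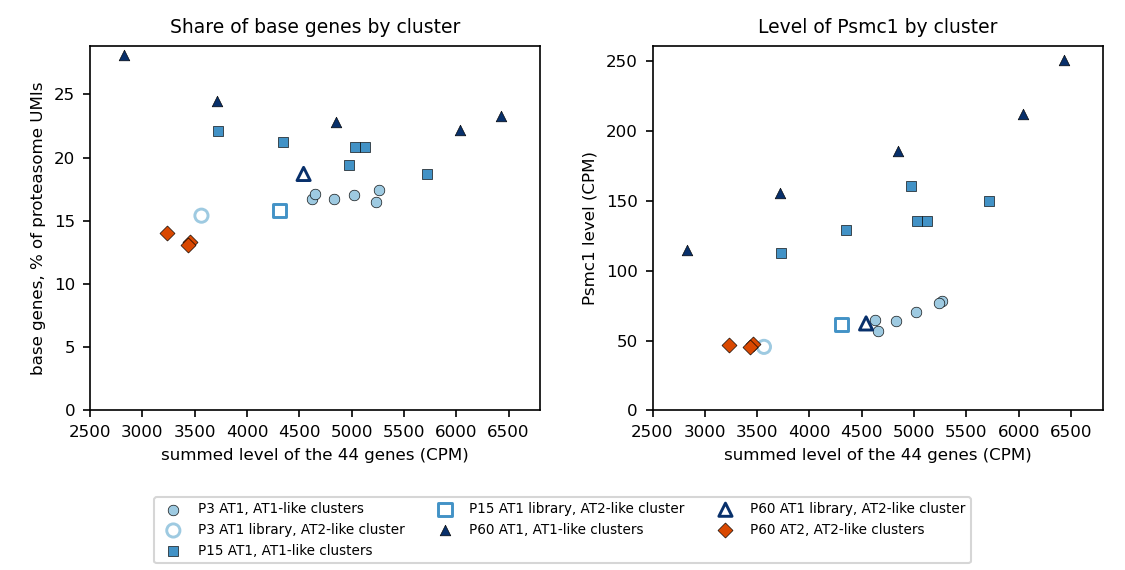
Base share of proteasome UMIs (left, %) and level of Psmc1 (right, CPM) against the summed level of the 44 genes (CPM), 1 point per cluster. Filled points are clusters of the sorted type, and open points are the AT2-like clusters of the AT1 libraries, which lie below the filled points of the same library in both panels.

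Genes that work with the particle were read from lists of partners, shuttle factors, ubiquitin genes and regulators of subunit transcription. Of 10 measured partners, 3 were at least 1.5-fold higher at P60 than at P3 and 1 lower, against 24.7 and 13.5% of all genes. In AT2 cells 6 were lower than in P60 AT1 cells and 1 higher, and 6 of 10 is near the 53.7% of all genes that were lower. Akirin2, which carries proteasomes into the nucleus, was at 21.8 CPM at P3, 50.3 at P15, 79.8 at P60 and 28.5 in AT2 cells, 3.66-fold higher at P60 than at P3 (3.23 to 4.15). Usp14, a deubiquitinase bound to the base, was at 34.4, 42.3, 67.2 and 25.6 CPM. Adrm1 (Rpn13), a ubiquitin receptor of the base, and Uchl5, the deubiquitinase it recruits, were at 78.7 and 33.5 CPM in P60 AT1 cells and 36.9 and 14.1 in AT2 cells. Zfand5, which stimulates the particle, was at 214 and 71.9 CPM.

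Vcp, which encodes the ATPase of the segregase, was at 242 CPM at P60 and 156 CPM at P3, and at 172 CPM in AT2 cells. Ddi2, a protease that cleaves Nfe2l1, was at 25.5 CPM in AT2 and 18 in P60 AT1 cells (1.42-fold, 1.14 to 1.79). The ubiquitin genes had wider differences: Ubb was at 2657, 3158, 1687 and 1013 CPM, and Rps27a, which encodes ubiquitin fused to a ribosomal protein, at 3118, 989, 694 and 2683 CPM, in the order of the libraries' ribosomal share. Of the regulators, Nfe2l1, which drives subunit genes, was at 94.2 CPM in P60 AT1 cells and 55.9 in AT2 cells (0.593-fold, 0.528 to 0.667). Its log2 ratio of -0.75 lay near the median of -0.68 over all genes. Ngly1, the enzyme that activates Nfe2l1, was at 40.2 and 18 CPM. Ratios of the listed genes are in CPM, and the trimmed mean raises each log2 ratio of AT2 over P60 AT1 cells by 0.64. Nfe2l2, the related factor of the oxidative stress response, was at 125 CPM in AT2 and 95 in P60 AT1 cells (1.31-fold higher, 1.19 to 1.45). Of 5 measured regulators, 3 were at least 1.5-fold lower in AT2 cells and none higher, where 53.7 and 14.4% of all genes were.

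Of the 2 other matches of the name rule, Psmc3ip was at 15.8, 16.7 and 23.3 CPM at the 3 AT1 ages, youngest first, and 17.6 in AT2 cells. Psme2b was at 27.1, 10.8, 22.4 and 8.71 CPM. In the annotation, 16 of the 44 genes share a stretch of 50 bases within their last 500 transcript bases with another gene, 5 of them with a gene that the files list (Psma5, Psmb3, Psmd2, Psmd9 and Psme2), and their levels are uncertain to that extent. Psmd9 shared such a stretch with 75 listed genes. Exons of 9 members (Psma4, Psma5, Psmb7, Psmc3, Psmd1, Psmd3, Psmd9, Psmd13 and Psme1) overlap a gene on the other strand, and whether the counting used strand was not given in the sources used here.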

How the data were processed

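All 4 libraries of sorted lung cells, 1 per group, were analysed. The authors deposited natural log values per gene and cell, made by scaling each cell's UMIs to 10000 and adding 1, as the values show. Cell Ranger 1.3.1, Seurat 2.0.0 and the builds mm10 and hg19 are named per the submitters' processing notes, and what hg19 was used for was not given in the sources used here. Deposited numbers were turned back to linear scale and divided by each cell's smallest step, giving whole UMIs for 100% of them within 0.05.

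Cells were clustered per library (Scanpy 1.11.5, Leiden resolution 0.5) and named from marker lists. Clusters of other types and cells with several markers of another type were left out, and no doublet caller was run. UMIs were summed per library and given as CPM. Ratios carry exact conditional Poisson intervals, levels exact Poisson intervals and shares Clopper-Pearson intervals. Ratios counted as measured needed a mean of at least 20 CPM over the 2 libraries and 30 UMIs in both together. The 4 scalings were CPM, a trimmed mean of log ratios, and totals without ribosomal protein, mitochondrial and haemoglobin genes or without Malat1. Scripts were tested on simulated data. Coordinates follow GENCODE M21 (GRCm38).

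Values in all libraries are given for the catalytic, ATPase, activator and core chaperone genes, Psmb10, Psmd4, Psmd11 and Psmd14, and for the widest ratios of each role. Members and lists were chosen with earlier results of these data known.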

Additional observations from a re-analysis of the deposited data

How the results depend on the processing

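Medians and counts are in CPM unless a scaling is named, and the cells of low Malat1 share were chosen after seeing the data. Counts given for other choices of cells have no share of all genes beside them here, so they do not set the proteasome apart. The median log2 ratio of P15 over P3 was -0.19 with totals without ribosomal protein, mitochondrial and haemoglobin genes. There 1 member was 1.5-fold higher and 3 lower, where 11.3 and 16.7% of all genes were. At a fold of 2, 1 was higher in CPM (6.97% of all genes). For P60 over P15 the median was -0.07 by the trimmed mean (1 lower), 0.20 without Malat1 (1 higher), -0.03 in cells of low immediate early share (2 lower), 0.09 in cells of low mitochondrial share and 0.11 in cells of low Malat1 share. Of 5824 genes, 869 were lower by the trimmed mean and 1136 higher without Malat1. For P60 over P3 the median was -0.20 by the trimmed mean, -0.23 with totals without ribosomal protein, mitochondrial and haemoglobin genes (2 higher each) and 0.21 without Malat1 (0 lower). Of 5790 genes, 971 and 905 were higher by the first 2 of these scalings and 562 lower by the last. The members lower at P60 than at P3 were 1 with all cells and in cells of low mitochondrial share, and 2 in cells of at least 4000 UMIs and in cells of low Malat1 share. At a fold of 2, 1 was higher and 0 lower in CPM (11.3 and 7.12% of all genes). For AT2 over P60 AT1 cells the median was -0.18 by the trimmed mean (8 higher, 6 lower), -0.60 with totals without ribosomal protein, mitochondrial and haemoglobin genes (3 higher) and -1.01 without Malat1. Of 5524 genes, 1452 were higher and 1578 lower by the first of these scalings, and 974 higher by the second. At a fold of 2, 13 were lower in CPM (36.3% of all genes). Psma4 and Psmd7 turned to 0.04 and 0.02 on the log2 scale by the trimmed mean. The other 129 values of medians, counts and per-cell shares under the alternatives moved by less than their interval, their quartiles or 1.5 times. Values of single genes and summed groups were less stable: 392 stayed within their interval, 198 moved beyond it and 2 changed direction. Over 11 alternatives the log2 ratio of AT2 over P60 AT1 cells ran from -0.73 to 0.10 for the summed core, -1.24 to -0.41 for the cap and 0.05 to 0.88 for the regulators, and that of P60 over P3 from -0.28 to 0.16, -0.02 to 0.42 and -0.46 to -0.02. The members' median minus that of all genes was the same under each scaling, since a scaling moves every gene alike. No replicate sets a spread, and which scaling measures RNA per cell best was not tested. At the median a member had 570 to 2162 UMIs per library.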
